A study of Mus musculus with 15 samples.

Results

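Quercetin and myricetin are dietary flavonols that differ by a hydroxyl group on the B ring, which myricetin carries in addition. Liver RNA from mice given either compound was compared, with 3 libraries for quercetin (replicates 2, 5 and 8) and 3 for myricetin (replicates 5, 7 and 8), 6 of the 15 libraries in the study. The members were taken by their labels alone. The daily doses differed, 200 mg/kg for quercetin and 75 mg/kg for myricetin, so compound and dose cannot be told apart in any difference below. The other groups, with 3 libraries each, were a control on standard feed, a model group on a cholesterol-rich diet without a flavonol, and kaempferol at 100 mg/kg a day. All mice are labelled WT. Both groups compared here were labelled as fed high-fat for 6 weeks, with the flavonol given by gavage. The labels spell out a diet only for the model group (78.8% standard feed with 1% cholesterol, 0.2% sodium cholate, 10% lard and egg yolk powder at 10%). Strain, sex, age, fasting and hour of collection are not given in the labels. The labels do not tie the libraries to separate animals, and the p-values therefore measure only the spread between libraries, which may be technical.

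The liver carries its own circadian clock. BMAL1 (gene Arntl) and CLOCK pair on E-boxes and switch on Per, Cry, Nr1d1, Dbp and Ciart. PER and CRY proteins then repress that pair, while the nuclear receptors encoded by Nr1d1 and Nr1d2 repress Arntl at sites that ROR receptors use to activate it. The PAR bZIP factors DBP and TEF pass the rhythm on through D-boxes to many liver genes, and lipid and sterol enzymes are among the outputs. Separately, SREBP factors switch on the genes of fatty acid and cholesterol synthesis.

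The deposited expected counts summed to 15853767 to 17576502 per library, with 14612 to 14907 genes detected. Levels are given in CPM, the usual per-library count unit, relative to a library size scaled by edgeR's TMM factors. Albumin took 4.64% to 7.86% of the counts, and each quercetin library had a larger share than any myricetin library. Pearson correlations of log2(CPM + 1) across genes were 0.984 to 0.987 within quercetin, 0.987 to 0.989 within myricetin and 0.979 to 0.989 between the groups. Quercetin 8 correlated with myricetin 8 at 0.989, above its correlation with quercetin 2 (0.984) or quercetin 5 (0.986). Counts of passing genes without quercetin 8 are therefore given beside those of each list that had a passing gene. Leaving out quercetin 8 gave the most passing genes, 202 against 101 with all libraries. Leaving out another quercetin or myricetin library gave 26 to 123, mostly fewer than 101. The list counts without quercetin 8 thus cannot show whether a list holds when another library is left out. Such list counts are given only for the clock genes.

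Of 12658 genes tested, 101 passed an adjusted p of 0.05 (quasi-likelihood test in edgeR, p-values adjusted by Benjamini and Hochberg), or 0.798%. Of these, 50 were higher with quercetin (0.395%) and 51 lower (0.403%). The genes furthest apart included the clock genes Ciart, Dbp, Per3 and Arntl, the lipogenic regulator Thrsp, the elongase Elovl3, the P450 gene Cyp2a5 and the cyclin-dependent kinase inhibitor Cdkn1a. Absolute log2 fold changes of passing genes ran from 0.42 to 3.86, and 40 genes reached 1. In all 101 genes the CPM ranges of the groups did not overlap, as was true of 15% of all genes tested (7.59% with quercetin higher and 7.41% with quercetin lower). The median log2 fold change over all genes tested was -0.003, and the median standard error of a gene was 0.16.

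The number of calls depended on single libraries. Without quercetin 8, 202 genes passed, and without myricetin 8, 123 passed. Leaving out quercetin 2, quercetin 5, myricetin 5 or myricetin 7 left 35, 33, 26 and 30 genes. All 101 genes kept their direction in these fits, and 18 passed in each of them, among them Arntl, Clock, Dbp, Per3, Cdkn1a, Lrfn3, Clpx, Crot, Slc30a10 and Cmpk2. A fit of the 6 libraries alone passed 10 genes, of which 5 were among the 101, and a replicate block passed 6, all among the 101. With scaling by library totals only, 64 genes were higher and 41 lower, 78 of these 105 being among the 101, and the median over all genes moved to 0.05.

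**Figure D1:**
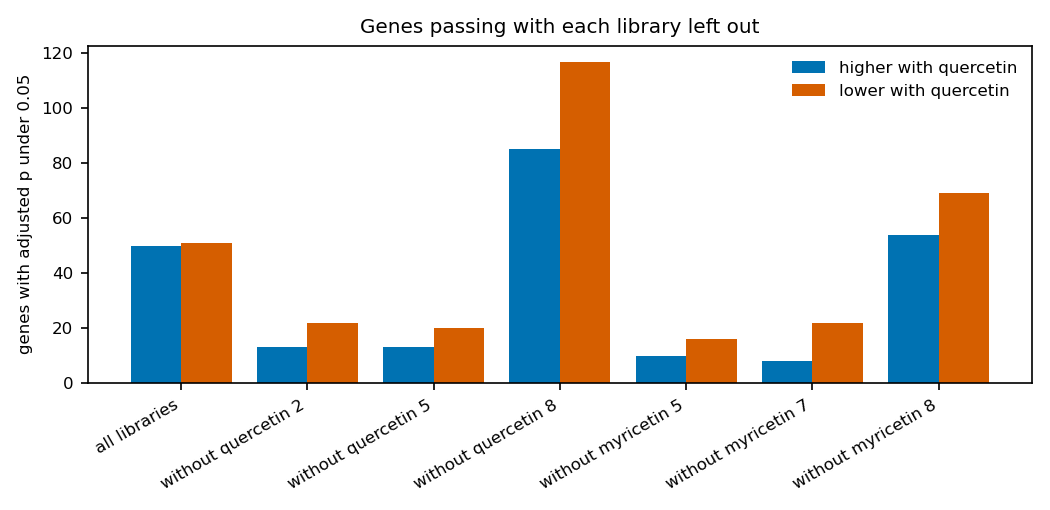
Number of genes with an adjusted p under 0.05 (edgeR), higher or lower with quercetin, for the fit of all libraries and for each fit without 1 quercetin or myricetin library. The count falls to between 26 and 35 genes without quercetin 2, quercetin 5, myricetin 5 or myricetin 7, and rises to 202 without quercetin 8.

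**Figure D2:**
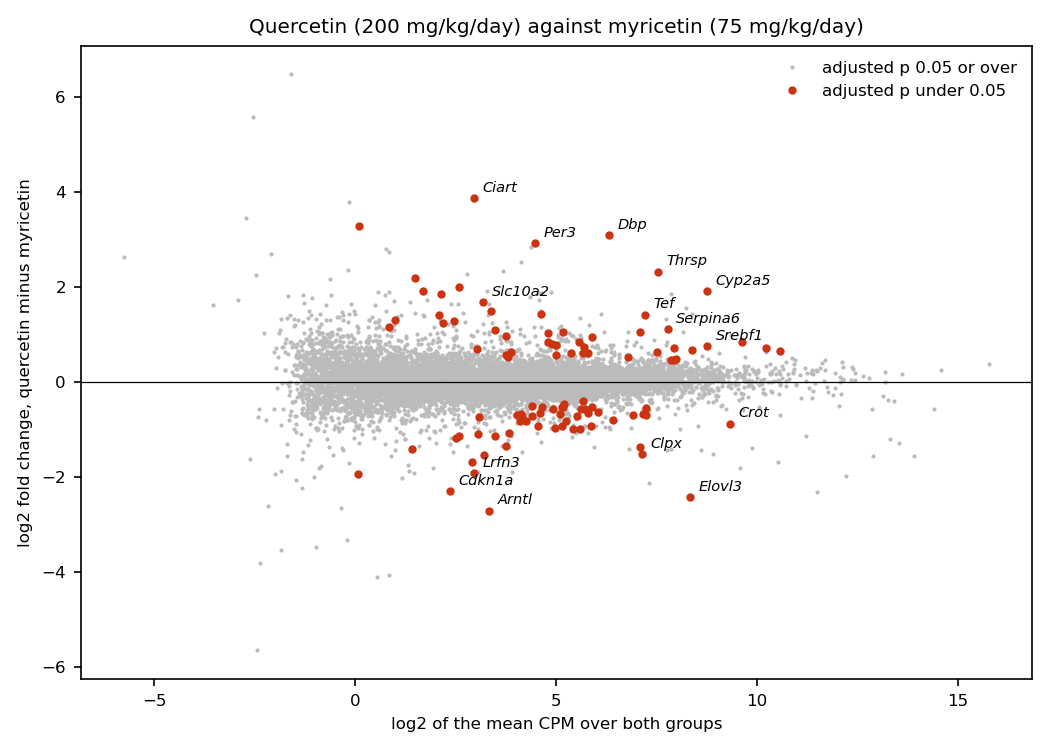
Each dot is a gene tested, with log2 of its mean CPM over both groups on the x axis and the log2 fold change of quercetin over myricetin on the y axis. Red dots are the 101 genes that passed, and Ciart, Dbp and Per3 lie above 2.5 while Arntl and Elovl3 lie below -2.

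Set beside the diet alone, 990 genes (7.82%) passed for quercetin against the model group, 514 higher (4.06%) and 476 lower (3.76%). For myricetin against the model group 50 genes (0.395%) passed, 23 higher (0.182%) and 27 lower (0.213%). These comparisons share the 3 model libraries. The difference in the number of calls was not itself tested.

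Among 19 clock and clock output genes, 7 passed, against 0.798% of all genes, with 5 higher and 2 lower with quercetin. The median log2 fold change of the 19 was 0.48, with 13 positive and 6 negative. The number passing was 12 with DESeq2, 5 to 10 with 1 library left out (10 without myricetin 8, 9 without quercetin 8), and 1 in the fit of the 6 libraries alone or with a replicate block. The 0.798% of all genes is also the background for the lists below, and a list with 1 passing gene is described only. The lists and their members were chosen with earlier results of these data known. The share of all genes is therefore a reference for each list and not a test of it. Below, CPM values follow the replicate order 2, 5 and 8 for quercetin and 5, 7 and 8 for myricetin.

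The activating arm of the loop was lower with quercetin. Arntl, on chromosome 7 (113178471 to 113314126, GRCm38.p6), had 3.56, 1.33 and 3.08 CPM with quercetin and 23.2, 16.3 and 12.9 CPM with myricetin. Every quercetin library lay far below the lowest myricetin library. The log2 fold change was -2.72 ± 0.28 (SE; edgeR adjusted p = 0.000663), and the model mean was 28.6 ± 2.02 CPM (SD, n = 3). Clock, its partner, had 18.6, 17.5 and 27.1 CPM with quercetin and 46.5, 43.4 and 34.4 CPM with myricetin. Quercetin 8 came nearest to the myricetin libraries without reaching them, and the log2 fold change was -0.98 ± 0.15 (edgeR adjusted p = 0.00607). Npas2, a CLOCK paralog that also pairs with BMAL1, had 0.222, 0.0555 and 0.185 CPM against 6.18, 1.39 and 0.69 CPM. Its ranges did not overlap, but myricetin 5 stood well above the other myricetin libraries and the gene did not pass (log2 fold change -4.11 ± 1.08, edgeR adjusted p = 0.128).

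Among genes that the BMAL1 and CLOCK pair drives, Dbp, Per3 and Ciart were higher with quercetin, while Cry1, Nr1d1, Per1 and Per2, described below, did not pass. Dbp had 141, 163 and 126 CPM with quercetin and 5.55, 19.8 and 25.2 CPM with myricetin. All quercetin libraries were near each other, whereas myricetin 5 was lower than the other myricetin libraries. The log2 fold change was 3.09 ± 0.39 (edgeR adjusted p = 0.00558). The model mean of Dbp was 2.68 ± 0.43 CPM (SD, n = 3) and the kaempferol mean was 1.58 CPM. Per3, a period gene, had 49.3, 42.9 and 26.2 CPM against 2.75, 6.69 and 6.21 CPM. Its lowest quercetin library, quercetin 8, was well above the highest myricetin library, with a log2 fold change of 2.92 ± 0.32 (edgeR adjusted p = 0.000987).

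Ciart, which encodes a repressor of the BMAL1 and CLOCK pair, had 11.7, 24.6 and 7.14 CPM with quercetin and 0.343, 0.784 and 1.84 CPM with myricetin. The groups did not overlap, and the log2 fold change was the largest of the passing genes at 3.86 ± 0.57 (edgeR adjusted p = 0.00798). Without myricetin 7 its adjusted p was 0.0579. Bhlhe41, which encodes the E-box repressor DEC2, had 7.0, 5.38 and 8.37 CPM against 1.14, 1.93 and 2.70 CPM. Quercetin libraries were all higher, by 1.84 ± 0.31 on the log2 scale (edgeR adjusted p = 0.0119). It passed in 4 of the 6 leave-one-out fits, with the highest adjusted p, 0.0697, without myricetin 5. Tef, a PAR bZIP factor like Dbp, had 227, 247 and 169 CPM against 55, 102 and 85.4 CPM. Its ranges were separate and its log2 fold change was 1.41 ± 0.24 (edgeR adjusted p = 0.0198), but it passed in 3 of the 6 leave-one-out fits, with 0.0902 without quercetin 5.

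**Figure D3:**
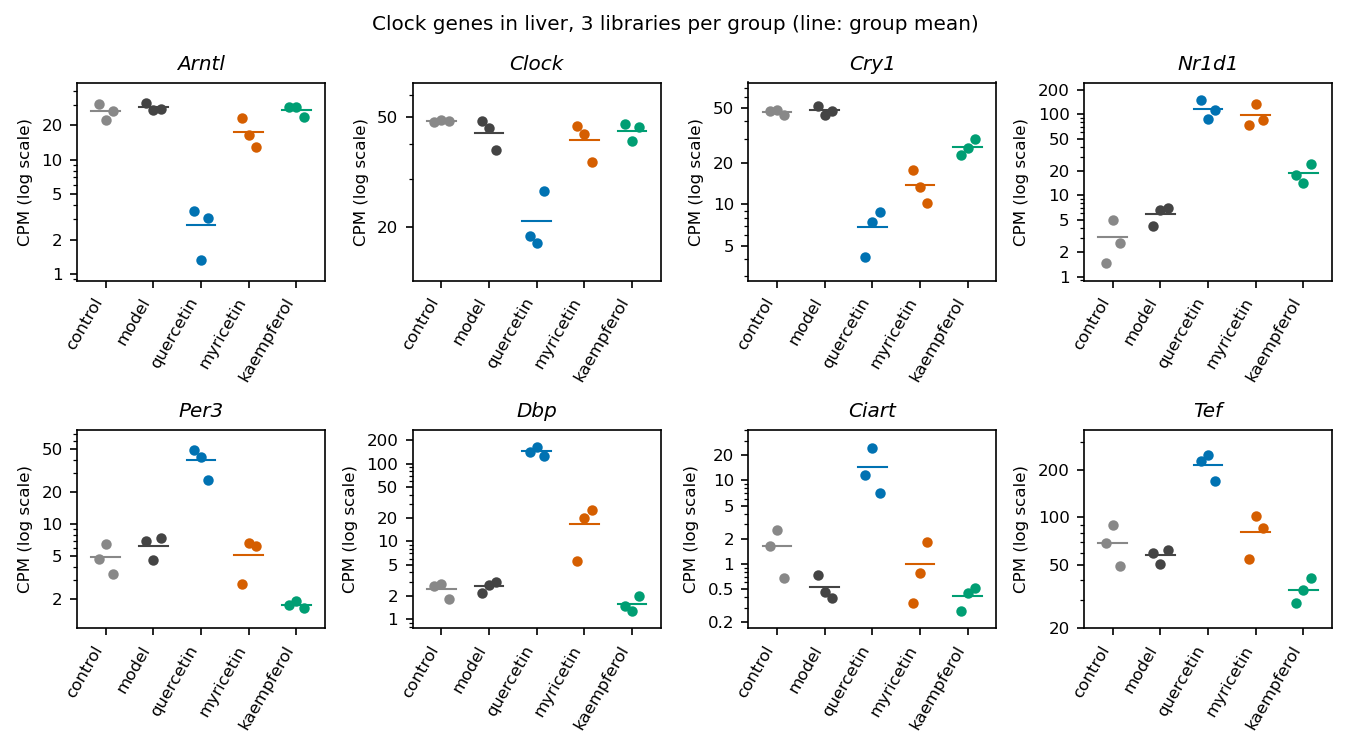
CPM on a log axis for 8 clock genes in the 5 groups, with 1 dot per library and a line at the group mean. Arntl and Clock are lower and Per3, Dbp, Ciart and Tef higher in every quercetin library than in any myricetin library, whereas the Nr1d1 ranges overlap.

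Other parts of the loop did not pass. Cry1, a cryptochrome repressor, had 4.11, 7.38 and 8.86 CPM with quercetin and 17.8, 13.4 and 10.2 CPM with myricetin, without overlap. Its log2 fold change was -1.03 ± 0.23 (edgeR adjusted p = 0.0555), and its model mean was 48.2 CPM, above both groups. Nfil3, whose product competes with DBP at D-boxes, had 23.5, 15.8 and 22.9 CPM against 45.6, 37.5 and 28.7 CPM (log2 fold change -0.85 ± 0.20, edgeR adjusted p = 0.0644). Both genes had separate ranges with quercetin at the lower side. Per2 had 31.0, 61.0 and 20.3 CPM against 9.84, 10.6 and 10.5 CPM (log2 fold change 1.87 ± 0.46, edgeR adjusted p = 0.113). Nr1d1, which encodes REV-ERB alpha, had 151, 86.8 and 113 CPM against 73.3, 134 and 84.1 CPM. The groups overlapped, and the interval of the log2 fold change was -0.46 to 0.99. Both groups lay above the model mean of 5.95 CPM and the kaempferol mean of 18.7 CPM. Per1 likewise overlapped, with 19.6 to 50.9 CPM for quercetin and 4.29 to 24.2 CPM for myricetin. The hour of liver collection is not in the labels, and its part in the clock differences was not tested.

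To show which clock elements lie at the start sites of these genes, 300 bases (250 before to 50 after the start) were read from RefSeq, build GRCm38.p6, for the 7 passing clock genes, all of which had a window. The motifs, searched on both strands, were the E-box CACGTG, the D-box TTATGNAA and the ROR and REV-ERB core AGGTCA. They occurred in 7.15%, 3.38% and 16.3% of 32851 windows of all genes. An E-box lay in a window of 3 of the 7 genes (Tef, Ciart and Bhlhe41), a D-box in that of 1 (Per3), and the AGGTCA core in a window of 2 (Arntl and Clock). Counted by window as in the background, the 7 genes had 11 windows, of which 4 held an E-box (36.4%), 1 a D-box (9.09%) and 2 the AGGTCA core (18.2%), the last close to the 16.3% of all windows. Tef held an E-box in each of its windows. Windows of the clock genes that did not pass were not counted. These shares therefore cannot set the passing clock genes apart from other clock genes. No matches overlapped. The Ciart window is chr3:95882179-95882478, minus strand, with 3 E-boxes. That of Per3 is chr4:151044616-151044915, minus strand, with 2 D-boxes. For Bhlhe41 it is chr6:145865371-145865670, minus strand, with 1 E-box, and for the second Arntl start chr7:113207261-113207560, plus strand, with 1 AGGTCA core. Capitals mark the matches, which are descriptions of the letters and not evidence of binding.
Ciart: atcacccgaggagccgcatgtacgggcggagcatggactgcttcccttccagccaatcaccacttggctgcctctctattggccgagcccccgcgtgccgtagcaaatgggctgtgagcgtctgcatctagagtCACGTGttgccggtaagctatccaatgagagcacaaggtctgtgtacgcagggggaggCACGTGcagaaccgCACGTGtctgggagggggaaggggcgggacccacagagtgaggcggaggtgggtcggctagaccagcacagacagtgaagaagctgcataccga
Per3: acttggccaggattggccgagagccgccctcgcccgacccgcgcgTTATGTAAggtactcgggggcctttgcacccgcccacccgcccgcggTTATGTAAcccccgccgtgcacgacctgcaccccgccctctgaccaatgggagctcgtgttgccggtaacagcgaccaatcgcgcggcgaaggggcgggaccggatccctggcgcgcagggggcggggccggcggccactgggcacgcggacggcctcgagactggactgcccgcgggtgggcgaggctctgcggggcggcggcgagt
Bhlhe41: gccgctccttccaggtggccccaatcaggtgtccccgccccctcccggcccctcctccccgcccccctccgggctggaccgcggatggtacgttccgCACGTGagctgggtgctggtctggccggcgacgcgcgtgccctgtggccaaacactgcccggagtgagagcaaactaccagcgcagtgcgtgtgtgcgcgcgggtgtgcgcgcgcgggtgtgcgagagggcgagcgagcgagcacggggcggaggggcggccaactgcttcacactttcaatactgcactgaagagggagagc
Arntl: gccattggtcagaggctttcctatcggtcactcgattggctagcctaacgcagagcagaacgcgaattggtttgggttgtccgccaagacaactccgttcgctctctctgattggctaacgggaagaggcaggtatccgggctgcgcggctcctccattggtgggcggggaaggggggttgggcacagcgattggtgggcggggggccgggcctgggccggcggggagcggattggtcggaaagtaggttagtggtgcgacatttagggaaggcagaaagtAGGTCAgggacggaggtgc
The gene with 3 E-boxes, Ciart, and the gene with 2 D-boxes, Per3, were both higher with quercetin. Dbp had no match in its window and was higher as well.

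Fatty acid synthesis genes were mostly above myricetin with quercetin, and 3 of 20 passed, against 0.798% of all genes (4 of 20 without quercetin 8, 1 in the fit of the 6 libraries alone and 7 with DESeq2). Thrsp and Srebf1 were higher and Elovl3 was lower. Of the 20, 18 had a positive log2 fold change, with a median of 0.55. Thrsp, a lipogenic regulator also called Spot14, had 236, 365 and 318 CPM with quercetin and 56.3, 36.8 and 91.8 CPM with myricetin. The lowest quercetin library was above the highest myricetin library, and the log2 fold change was 2.31 ± 0.40 (edgeR adjusted p = 0.0236). The model mean was 260 ± 66.8 CPM (SD, n = 3), within the quercetin range, and the kaempferol mean 57.1 CPM, within the myricetin range. Thrsp passed in 2 of the 6 leave-one-out fits, and its adjusted p was 0.125 without myricetin 5.

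Srebf1, which encodes the lipogenic transcription factor SREBP1, had 633, 501 and 499 CPM against 371, 288 and 311 CPM. Its groups did not overlap, with a log2 fold change of 0.75 ± 0.17 (edgeR adjusted p = 0.0445), but it passed in 1 leave-one-out fit and had an adjusted p of 0.18 without myricetin 7. The Srebf1 call was also lost with scaling by library totals (adjusted p = 0.068 in edgeR), limma-voom (0.0529), the fit that was not robust (0.0504), the 6 libraries alone (0.0733) and the replicate block (0.384). Fasn, the fatty acid synthase, had 517, 566 and 382 CPM against 213, 168 and 168 CPM. These ranges were separate too, but Fasn did not pass (log2 fold change 1.42, 95% interval 0.59 to 2.25, edgeR adjusted p = 0.134), although it did with DESeq2 and in the fit of the 6 libraries alone. The elongase Elovl6 (0.90 ± 0.23), the acetyl-CoA carboxylase Acaca (0.66 ± 0.18) and the citrate lyase Acly (0.78 ± 0.28) had positive log2 fold changes and did not pass. Scd1, the stearoyl-CoA desaturase, overlapped, with 3298 to 6825 CPM for quercetin and 3452 to 4206 CPM for myricetin, and an interval of -0.36 to 1.17.

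Elovl3, an elongase of very long chain fatty acids that is male-biased and rhythmic in mouse liver, went the other way. It had 90.1, 44.1 and 166 CPM with quercetin and 639.5, 537 and 454 CPM with myricetin. Even quercetin 8, the highest of its group, was far below myricetin 8, the lowest of the other. The log2 fold change was -2.44 ± 0.42 (edgeR adjusted p = 0.0243). It passed in 3 of the 6 leave-one-out fits, with 0.101 without quercetin 2.

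**Figure D4:**
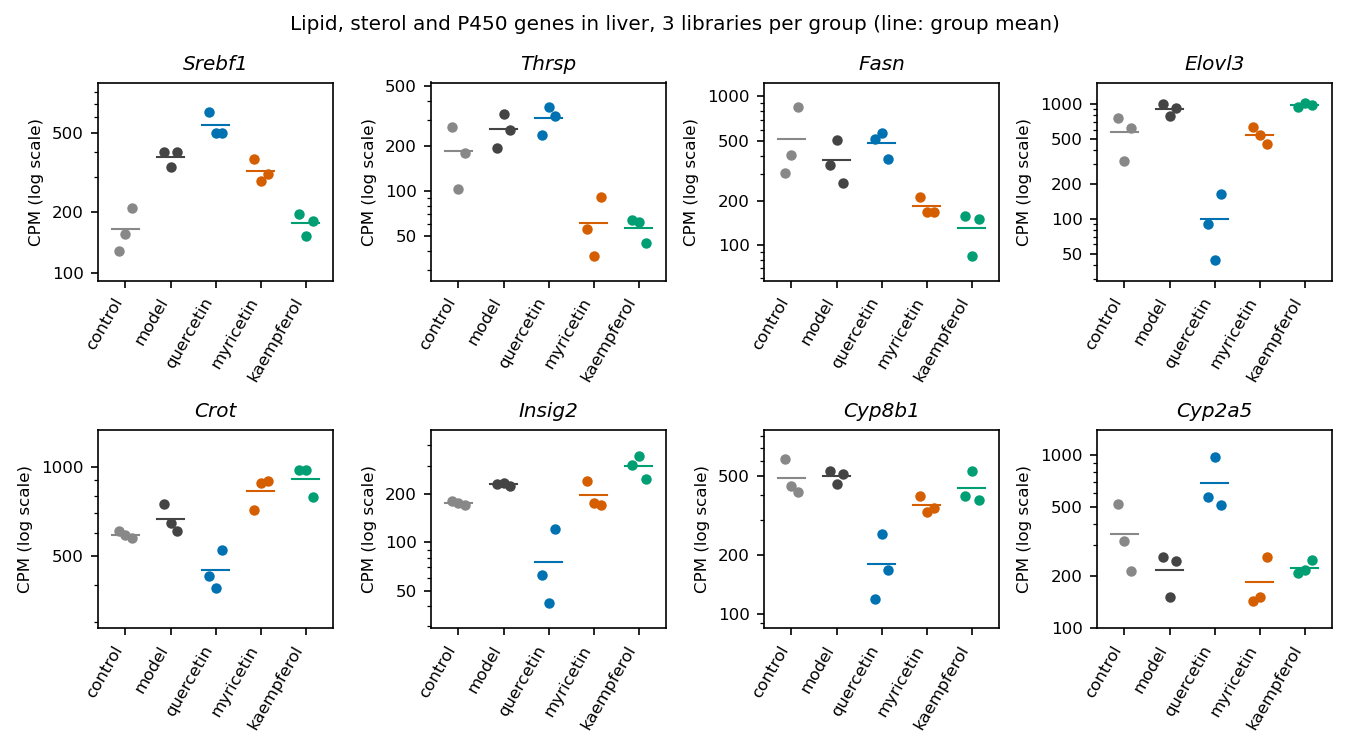
CPM on a log axis for 8 lipid, sterol and P450 genes in the 5 groups, with 1 dot per library and a line at the group mean. Elovl3, Insig2, Cyp8b1 and Crot are lower, and Srebf1, Thrsp, Fasn and Cyp2a5 higher, in every quercetin library than in any myricetin library, although Cyp8b1 and Fasn did not pass.

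In cholesterol synthesis and uptake, 2 of 25 genes passed, both higher with quercetin, against 0.395% of all genes (also 2 without quercetin 8 and in the fit of the 6 libraries alone, 6 with DESeq2), and 23 of 25 had a positive log2 fold change (median 0.56). Fdft1, the squalene synthase, was at the edge of the threshold (log2 fold change 0.81 ± 0.18, edgeR adjusted p = 0.0562). Lss, the lanosterol synthase, had a log2 fold change of 0.77 ± 0.23 (edgeR adjusted p = 0.161). Sqle, the squalene epoxidase, was at 3.00 to 4.78 CPM with quercetin and 0.69 to 2.80 CPM with myricetin, with an interval of -0.77 to 2.76.

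Insig2 encodes a protein of the endoplasmic reticulum that holds SREBPs back from processing. It had 62.5, 42.1 and 119.9 CPM with quercetin and 239.6, 175 and 171 CPM with myricetin. The ranges were separate, with quercetin 8 nearest to myricetin, and the log2 fold change was -1.38 ± 0.29 (edgeR adjusted p = 0.0472). It passed in 1 leave-one-out fit and had 0.176 without myricetin 5. Its paralog Insig1 had a positive log2 fold change of 0.84 (edgeR adjusted p = 0.284).

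None of 18 bile acid synthesis genes passed (median log2 fold change -0.15), of 12 bile acid and organic anion transport genes (-0.08), or of 14 sterol efflux and esterification genes (0.21). Cyp8b1, the hydroxylase needed to make cholic acid, had 119, 253 and 168 CPM against 399, 330 and 344 CPM. Quercetin libraries were all lower, but the gene did not pass (log2 fold change -0.99, 95% interval -1.48 to -0.51, edgeR adjusted p = 0.0635), although it did with DESeq2. Cyp7b1, of the alternative pathway, had 47.2, 120 and 180 CPM against 308, 345 and 292 CPM (log2 fold change -1.44 ± 0.36, edgeR adjusted p = 0.112). Cyp7a1, the rate-limiting enzyme of the classical pathway, overlapped, with 76.3 to 190 CPM for quercetin and 47.0 to 110 CPM for myricetin, and its interval ran from -0.34 to 2.41. Abcg5, a sterol transporter of the canalicular membrane, overlapped as well, with an interval of -0.25 to 1.20. Outside these lists, Slc10a2, a bile acid uptake carrier, had 23, 8.16 and 10.4 CPM against 5.89, 3.68 and 3.39 CPM. Its lowest quercetin library was above the myricetin range (log2 fold change 1.68 ± 0.34, edgeR adjusted p = 0.0377), and it passed in 2 of the 6 leave-one-out fits, with 0.159 without myricetin 7. The model mean of Slc10a2 was 14.3 ± 2.16 CPM (SD, n = 3), within the quercetin range and above every myricetin library. The kaempferol mean was 8.56 CPM.

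Of 19 genes that the lipid-sensing receptor PPAR alpha induces, 1 passed (2 without quercetin 8), and 14 had negative log2 fold changes (median -0.31). That gene, Crot, the carnitine octanoyltransferase of peroxisomes, had 430.4, 390.5 and 527 CPM with quercetin and 715, 883 and 896 CPM with myricetin. The groups were well apart, with a log2 fold change of -0.89 ± 0.13 (edgeR adjusted p = 0.00558). Acsl1, an acyl-CoA synthetase, had a log2 fold change of -0.60 ± 0.14 (edgeR adjusted p = 0.0562). Cyp4a14, a fatty acid hydroxylase that PPAR alpha strongly induces, varied within groups, from 54.5 to 298 CPM with quercetin and from 5.95 to 250 CPM with myricetin. None of 22 fatty acid oxidation and ketogenesis genes passed, and their median was -0.0047. Among them Pdk4, the kinase that inhibits pyruvate dehydrogenase, had 2.56, 1.05 and 1.42 CPM against 4.52, 9.77 and 3.68 CPM (log2 fold change -1.83 ± 0.40, edgeR adjusted p = 0.0551). Cpt1a, which brings fatty acids into mitochondria, overlapped with an interval of -0.26 to 0.24. None of 18 lipid droplet genes passed (median 0.11) and none of 26 fatty acid uptake and apolipoprotein genes (0.11), the scavenger receptor Cd36 included (interval -1.12 to 0.82). In glucose and glycogen metabolism 1 of 22 genes passed, also without quercetin 8 (median 0.22). Gys2, the liver glycogen synthase, had 191, 267 and 209 CPM against 119.5, 155 and 156 CPM, all quercetin libraries being higher (log2 fold change 0.63 ± 0.13, edgeR adjusted p = 0.0348). It passed in 3 leave-one-out fits, with 0.176 without myricetin 5.

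Among 18 P450 and related genes under the xenobiotic receptors CAR and PXR, 1 passed, and 2 without quercetin 8 (median 0.17). Cyp2a5, a coumarin hydroxylase, had 571, 973 and 515 CPM with quercetin and 142, 149.9 and 258 CPM with myricetin. Every quercetin library was above every myricetin library, and the log2 fold change was 1.91 ± 0.37 (edgeR adjusted p = 0.0377). It passed in 2 leave-one-out fits, with 0.171 without myricetin 5, and was lost with no filter on low counts (0.0677), the 6 libraries alone (0.0778) and the replicate block (0.319). Cyp2a5 has a near-identical neighbour, Cyp2a4, so the division of reads between them is uncertain. Por, the reductase that feeds electrons to P450 enzymes, had a log2 fold change of 1.04 ± 0.25 (edgeR adjusted p = 0.0907). None of 8 genes of the aryl hydrocarbon receptor battery passed (median 0.08), nor of 27 NRF2, glutathione and antioxidant genes (0.15) or 26 conjugation genes for glucuronidation, sulfation and methylation (-0.02). Cyp1a1, the classical target of the aryl hydrocarbon receptor, was at 1.28 to 2.22 CPM with quercetin and 1.09 to 1.33 CPM with myricetin, overlapping, with an interval of -0.15 to 1.07.

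Few sex-biased or growth hormone genes passed. All 20 male-biased liver genes had negative log2 fold changes (median -0.49), and 1, Elovl3, passed (4 without quercetin 8). Their summed level was 22392, 24211 and 40094 CPM with quercetin and 37309 to 41546 CPM with myricetin, so quercetin 2 and 5 stood below the myricetin range and quercetin 8 within it. Of 18 female-biased genes 8 were tested, none passed, and 7 had positive values (median 1.16). Their summed level overlapped, at 187, 335 and 73.7 CPM with quercetin and 19.1, 268 and 180.4 CPM with myricetin, myricetin 5 being the lowest. Among 15 genes of the growth hormone and IGF1 axis 1 passed (2 without quercetin 8), and 9 were positive and 6 negative (median 0.04). Stat5a, a transcription factor of growth hormone signalling, had 12, 13.2 and 11.8 CPM against 25.5, 20.6 and 19.8 CPM, with every quercetin library lower (log2 fold change -0.83 ± 0.14, edgeR adjusted p = 0.0119). It passed in 4 leave-one-out fits, with 0.0738 without myricetin 5. Its paralog Stat5b had a log2 fold change of -0.59 ± 0.15 (edgeR adjusted p = 0.0939), and Socs3, an inhibitor of the pathway, 1.25 ± 0.30 (edgeR adjusted p = 0.0813).

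Cdkn1a, which encodes the cell cycle inhibitor p21, was lower with quercetin, at 2.83, 1.22 and 1.11 CPM against 10.1, 5.31 and 10.4 CPM. No quercetin library reached the myricetin range (log2 fold change -2.31 ± 0.33, edgeR adjusted p = 0.00607). It was the only one of 21 cell cycle genes to pass with all libraries (2 passed without quercetin 8), and the other 20 all had positive log2 fold changes (median of the 21, 0.49). The summed level of the list, 24 genes with those not tested, overlapped between the groups. It was 159, 114 and 97.2 CPM with quercetin and 101 to 103 CPM with myricetin, so quercetin 8 was below every myricetin library. The ribonucleotide reductase subunit Rrm2 had 3.50, 10.7 and 4.49 CPM against 3.03, 2.90 and 3.33 CPM, with quercetin 5 standing apart (edgeR adjusted p = 0.157). Wee1, a kinase that delays mitosis and a clock target in mouse liver, lay outside that list. It had 7.11, 13.8 and 7.82 CPM against 1.77, 2.23 and 3.22 CPM, without overlap (log2 fold change 1.99 ± 0.34, edgeR adjusted p = 0.0131). It passed in 3 leave-one-out fits, with 0.0871 without myricetin 5.

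Cdkn1a also stood among 16 glucocorticoid-responsive genes, of which 1 was higher and 1 lower (median 0.27), and 2 passed without quercetin 8. The higher gene, Zbtb16, a transcription factor that glucocorticoids induce, had 41.0, 47.3 and 19.9 CPM against 12.5, 11.4 and 16.7 CPM. Quercetin 8 was only slightly above myricetin 8, and the log2 fold change was 1.42 ± 0.29 (edgeR adjusted p = 0.0409). It passed in 1 leave-one-out fit, with 0.178 without myricetin 5. Slc30a10, a manganese exporter, was the 1 of 24 metal genes to pass (2 without quercetin 8; median 0.10), with 30.0, 25.0 and 30.0 CPM against 65.4, 52.3 and 51.8 CPM. All quercetin libraries were lower, and the replicates of each group lay close together (log2 fold change -0.99 ± 0.12, edgeR adjusted p = 0.000987). The metallothionein Mt2 had 16.8, 14.6 and 3.02 CPM against 2.98, 1.03 and 3.10 CPM, so quercetin 8 lay among the myricetin libraries (edgeR adjusted p = 0.331). Of 30 interferon-induced genes 1 passed, also without quercetin 8 (median 0.07). Cmpk2, a mitochondrial nucleotide kinase in that list, had 3.84, 2.83 and 4.55 CPM against 9.15, 8.56 and 7.12 CPM, with quercetin lower in all libraries (log2 fold change -1.15 ± 0.18, edgeR adjusted p = 0.00607).

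Further genes came among the 10 highest or 10 lowest passing genes. Lrfn3, which encodes a cell adhesion protein of synapses, had the smallest p, with 3.72, 2.05 and 3.94 CPM against 13.8, 12.2 and 10.7 CPM. Its groups were far apart for their spread (log2 fold change -1.92 ± 0.19, edgeR adjusted p = 0.000287). Clpx, which unfolds proteins for the mitochondrial ClpP protease, had 75.6, 49.9 and 92.6 CPM against 258, 170.1 and 202 CPM, again without overlap (log2 fold change -1.53 ± 0.19, edgeR adjusted p = 0.00174). Both passed in all 6 leave-one-out fits.

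Asap2, an ARF GTPase-activating protein (-1.69 ± 0.34), Spon2, a secreted matrix protein (-1.54 ± 0.28), and Fam89a (-1.18 ± 0.22) were lower with quercetin on the log2 scale. Their edgeR adjusted p values were 0.0363, 0.0202 and 0.0202. Nrg4, a growth factor of the EGF family (1.92 ± 0.36), and Dsg1c, a desmoglein of cell junctions (1.48 ± 0.26), were higher, with edgeR adjusted p values of 0.0198 and 0.018. These 5 genes each passed in 2 of the 6 leave-one-out fits. Without myricetin 5 the edgeR adjusted p was 0.0923 for Dsg1c. Without quercetin 5 it was 0.152 for Asap2, 0.107 for Spon2, 0.106 for Fam89a and 0.102 for Nrg4. Serpina6, which encodes the corticosteroid-binding globulin, is outside the naming rule and was chosen after its values were seen. It had 371, 284 and 246 CPM against 120, 135 and 163 CPM, with quercetin higher throughout (log2 fold change 1.11 ± 0.15, edgeR adjusted p = 0.00348).

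The other broad lists had small medians and no passing gene. All 31 cytosolic ribosomal protein genes had positive log2 fold changes (median 0.28), from 0.04 to 0.45. Of these, 13 had separate ranges, all with quercetin higher, against 7.59% of all genes. Their summed level overlapped, at 7875 to 9437 CPM with quercetin and 6390 to 8076 CPM with myricetin. The median was 0.14 for 32 nuclear-encoded respiratory chain genes, -0.01 for 29 proteasome genes, 0.25 for 34 urea cycle and amino acid genes and 0.03 for 30 complement and coagulation genes. It was 0.29 for 26 acute phase genes, 0.14 for 20 antigen presentation genes, -0.09 for 27 genes of the integrated and endoplasmic reticulum stress responses, 0.02 for 20 heat shock genes and 0.24 for 23 immediate early genes. Sds, a serine dehydratase, had 519, 198 and 195 CPM against 90.1, 119 and 155 CPM, the highest value being that of quercetin 2 (edgeR adjusted p = 0.156).

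**Figure D5:**
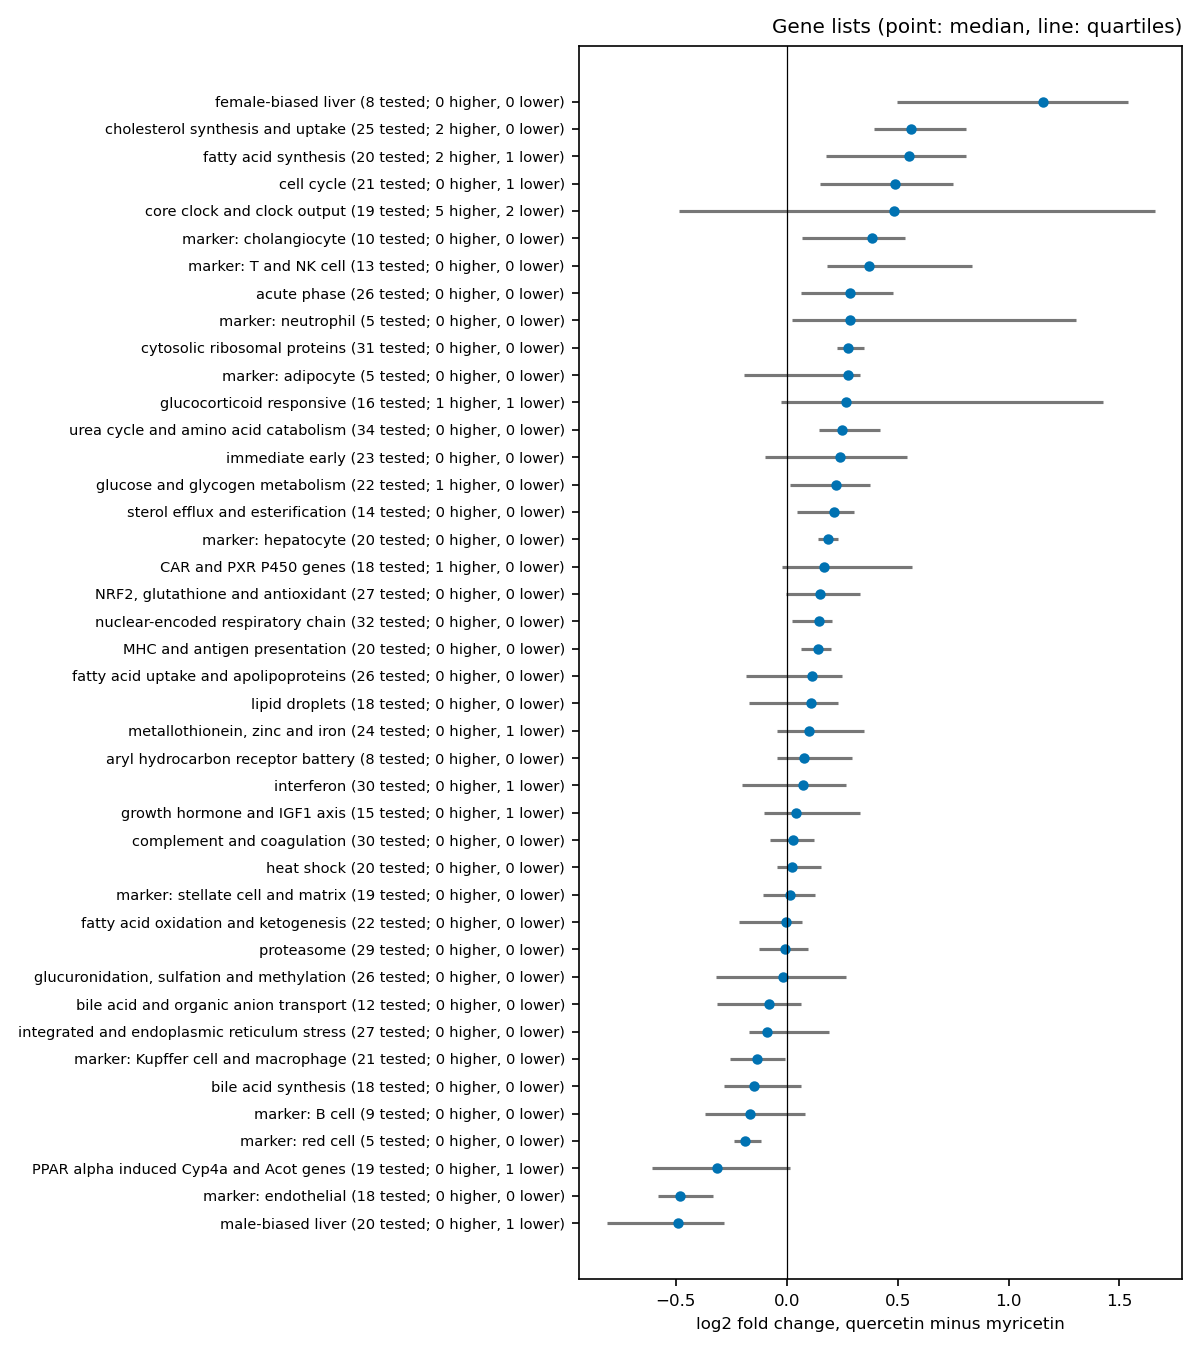
Median (point) and quartiles (line) of the log2 fold change of quercetin over myricetin for the tested genes of each list. Of the 43 lists, exocrine pancreas, with 2 genes tested, is not drawn. Labels give the number tested and the number that passed higher or lower. The female-biased list has the highest median, 1.16 over 8 genes. Fatty acid synthesis, cholesterol synthesis, cell cycle and clock lists sit at 0.55, 0.56, 0.49 and 0.48, male-biased liver and endothelial lists at -0.49 and -0.48, and the other lists between -0.31 and 0.38.

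The tissue label fitted the markers, since 20 hepatocyte markers summed to 128245 to 145321 CPM with quercetin and 104374 to 124793 CPM with myricetin. These sums did not overlap, and 19 of the 20 had positive log2 fold changes (median 0.18), opposite to the endothelial markers below. Albumin alone gave 71291, 60491 and 56657 CPM with quercetin and 47775, 44351 and 52889 CPM with myricetin. The separation of the sums thus rests largely on that gene. Separate ranges were seen in 3 of the 20, all with quercetin higher, against 7.59% of all genes. In bulk tissue, fewer cells of a type and less RNA per cell cannot be told apart. No gene of the 11 marker lists passed. Endothelial markers had negative log2 fold changes in 17 of 18 genes (median -0.48), and 11 of 18 had separate ranges with quercetin lower, against 7.41% of all genes. Their summed level was 462, 325 and 390.0 CPM with quercetin and 510.1, 496 and 580.1 CPM with myricetin, so the groups did not overlap, and the model range was 420 to 535 CPM. Tek, the angiopoietin receptor, had a log2 fold change of -0.87 ± 0.22 (edgeR adjusted p = 0.0935) and Stab2, a scavenger receptor of sinusoidal endothelium, -0.55 ± 0.16 (edgeR adjusted p = 0.134). None of the 18 endothelial markers was at 0 in all 6 libraries. The part of endothelial RNA in the other differences was not tested.

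Summed markers of other cells overlapped between the groups. Kupffer cell and macrophage markers came to 469 to 563 CPM with quercetin and 485 to 643 CPM with myricetin, and stellate cell and matrix markers to 268 to 467 and 270.0 to 505 CPM. T and NK cell markers lay at 12.3 to 25.1 and 11.8 to 16.0 CPM, B cell markers at 12.7 to 20.6 and 12.5 to 15 CPM, and neutrophil markers at 7.20 to 15.9 and 5.97 to 8.41 CPM. Cholangiocyte markers ranged from 70.9 to 108 and from 45.0 to 101 CPM, and adipocyte markers from 4791 to 5439 and from 4288 to 5728 CPM. Most of the adipocyte sum was Car3 (2114 to 3355 CPM over the 6 libraries) and Pck1 (925 to 2826 CPM). Adipoq, Plin1 and Retn, also in that list, were at or below 0.115 CPM, so the sum says little about adipocytes. Red cell markers were at 317 to 498 and 312 to 602 CPM. Exocrine pancreas markers were at 4.66 to 9.91 and 7.18 to 11.3 CPM, with Cela3b and Cpa1 at 0 in all 6 libraries.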

How the data were processed

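RNA was sequenced from 15 mouse liver libraries, 3 in each of 5 groups assigned by their labels. The tools, per the submitters' processing notes, included RSEM 1.3.1, DESeq2 1.4.5, HISAT2 2.1.0 and Bowtie2 2.3.4.3, with build GRCm38.p6; roles and settings are not given in the sources used here. The authors deposited expected counts for 16809 genes; 5.37% of the values were not whole, and all were rounded. The 30 FPKM and TPM columns per sample and the 15 group averages were not used. The lowest chi-square per gene between replicates was 20.1, so no library was counted as a duplicate.

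All 15 libraries were fitted together, with 10 residual degrees of freedom, by edgeR 4.0.16 (R 4.3.3; filterByExpr, TMM scaling, robust quasi-likelihood test, 2-sided). The contrast was quercetin minus myricetin, with Benjamini-Hochberg adjustment over 12658 genes and calls at 0.05. CPM are relative to the summed counts of the genes tested times the TMM factor. Standard errors come from the F statistic. The script was tested on simulated data. It recovered 52% of genes changed 1.5-fold and 86% of those changed 2-fold, and 14 of its 180 calls were false. These rates describe the simulated counts only. In the real data the number of calls ran from 26 to 202, depending on the library left out. Whether the rates hold for such data was not tested.

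Named were 10 fixed genes, the 10 highest and 10 lowest passing genes with separate ranges and at least 5 CPM in the higher group, and up to 4 passing members per list and direction. Members and lists were chosen with earlier results of these data known, and some genes the rule takes are not reported here. Alternatives were DESeq2 1.42.0, limma-voom (limma 3.58.1), RLE factors, library totals, no filter, a fit that was not robust, 6 libraries alone, a replicate block and each library left out. Promoters were read from the RefSeq table of GRCm38.p6.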

Additional observations from a re-analysis of the deposited data

How the results depend on the processing

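Against 101 genes (50 higher, 51 lower with quercetin), RLE factors passed 98, no filter 97, limma-voom 88 (86 of the 101), library totals 105 (78 of the 101) and the fit that was not robust 106. DESeq2 passed 269 (143 higher, 126 lower), all 101 among them. The fit of the 6 libraries alone passed 10 (6 higher, 4 lower), of which 5 are among the 101, with 4 residual degrees of freedom in place of 10. Leaving out 1 library gave 26 to 202 genes, 8 to 85 higher and 16 to 117 lower.

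The replicate block passed 6 genes (1 higher, 5 lower), all among the 101. Number 7 occurs in myricetin alone, so myricetin 7 had its own block term in that fit and added nothing to the contrast. The block terms also took up residual degrees of freedom. The part of pairing in the lower count was not tested. Quercetin and myricetin share the numbers 5 and 8 only. Deviations from the group means correlated at -0.06 and 0.11 for these pairs, against -0.13 to 0.14 for other pairs. So few pairs cannot show whether libraries of the same number share anything beyond it.

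Of 39 genes taken by the naming rule 30 passed, and all 30 kept their direction under every alternative run; 11 passed in each leave-one-out fit. Of the 30, 26 lost their call in the fit of the 6 libraries alone, 25 with the replicate block, 6 with limma-voom, 5 with no filter, 2 with library totals, 2 in the fit that was not robust and 0 with RLE factors or DESeq2. The sign changed for Cpt1a and Cd36, which did not pass. The log2 fold change of Cpt1a was 0.0486 with library totals and, with 1 library left out, -0.0914 to 0.0639, turning positive without quercetin 8, myricetin 7 (0.0322) or myricetin 8 (0.0338). That of Cd36 was -0.64 to 0.0613, turning positive without quercetin 5 (0.0101), quercetin 8 or myricetin 8 (0.00937). The causes were not tested. With 3 libraries a group, the median 95% interval reached 0.34 to each side on the log2 scale. That interval is not adjusted for the number of genes tested, so it is not the limit for a call. The smallest log2 fold change among passing genes was 0.42 in size, and larger ones, such as that of Fasn (1.42), did not pass. Differences well above 0.34 could therefore be missed.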
